A study of Homo sapiens with 40 samples.

Results

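The genes described here are the canonical, replication-dependent genes of the core histones H3 and H4. A fixed list of 29 genes was used, 14 for H3 and 15 for H4, and a gene was taken when the table of expression values held the probe set of its Ensembl gene. The table of 22069 genes held 23 of the 29, which were 11 H3 genes (HIST1H3A to HIST1H3J and HIST3H3) and 12 H4 genes (HIST1H4A to HIST1H4J, HIST1H4L and HIST4H4). HIST2H3D, HIST2H3A and HIST2H3C among the H3 genes and HIST1H4K, HIST2H4A and HIST2H4B among the H4 genes were not analysed here. The genes were chosen by name and not by a cutoff on measured values, but with earlier results of these data known.

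Transcripts were measured on 40 arrays from the osteosarcoma cell line U2OS and from hTERT-RPE1, a normal retinal pigment epithelial line immortalised with telomerase and called RPE1 below. Cells received pooled siRNAs at 15 nM, either control siRNA or siRNA against CASP8AP2, NPAT or HINFP. Control and CASP8AP2 siRNA were studied on day 1 and day 2 (3 arrays per group), and control, CASP8AP2, NPAT and HINFP siRNA on day 3 (2 arrays per group), which gave 16 groups over both lines. The labels call the replicates biological, but by the methods the day 3 duplicates were transfected together, so that their spread leaves out variation between experiments. Each line is 1 cell line, and each target was lowered by 1 pool of siRNAs.

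H3 and H4 pair with each other, and a tetramer of both forms the centre of the nucleosome around which DNA is wrapped. Cells make most of these proteins in S phase from many intronless gene copies, whose transcripts end in a stem-loop in place of a poly(A) tail. CASP8AP2 (also called FLASH) acts in the transcription and 3' end processing of histone transcripts, NPAT is a coactivator of histone genes that is activated by cyclin E and CDK2, and HINFP is a zinc finger protein known for binding a site in the promoters of H4 genes. The comparison of H4 with H3 under each siRNA therefore asked whether both partners of the tetramer moved together.

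Promoter sequences were taken from RefSeq (GRCh38.p14), where 25 of the 29 genes matched (12 H3 and 13 H4 genes). HIST1H3I, HIST1H3J, HIST1H4A and HIST1H4C had no entry, and HIST1H3D and HIST1H3E had 2 start sites each. The letters GTCCG, the core of the HINFP site of H4 genes, were searched on both strands together with the CCAAT box, the TATA box with its letters TATAAA, and the octamer ATTTGCAT. In the window from 250 bases before to 50 bases after the start, GTCCG was present in 12 of 13 H4 genes and in 2 of 12 H3 genes, against 28.9% of all 35116 promoters of this length. CCAAT was present in 12 of 12 H3 genes and 3 of 13 H4 genes, against 34.6% of all promoters. TATAAA was found in 10 H3 and 7 H4 genes (11.5% of all promoters) and the octamer in 1 H3 gene, HIST1H3D, and 0 H4 genes (1.77% of all promoters). In the 60 bases before the start, a window chosen after the sequences were seen, GTCCG was held by 12 of 13 H4 genes and 1 of 12 H3 genes, against 7.11% of all promoters, and HIST1H4G was the H4 gene without it.

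The 120 bases before the start are shown for 6 H4 genes and 3 H3 genes, in lower case from 5' to 3' with matches to the 4 motifs in capitals. HIST1H4B, HIST1H4D, HIST1H4E and HIST4H4 are shown because they fell under HINFP siRNA in U2OS, HIST1H4H because it rose under CASP8AP2 siRNA in both lines, and HIST1H4G because it lacks the HINFP site core. HIST1H3A, HIST1H3B and HIST1H3H are shown as H3 genes that fell under CASP8AP2 siRNA in U2OS. GTCCG begins 43 to 46 bases before the start in the 12 H4 genes that hold it, and the 3 H3 genes shown carry CCAAT without GTCCG. HIST1H4F, HIST1H4H, HIST1H4I, HIST1H4J and HIST1H4L also hold GTCCG but were not called under HINFP siRNA in U2OS.
HIST1H4B (chr6:26027284-26027403, minus strand): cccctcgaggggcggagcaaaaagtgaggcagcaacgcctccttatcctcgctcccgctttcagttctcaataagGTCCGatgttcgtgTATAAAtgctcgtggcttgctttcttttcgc
HIST1H4D (chr6:26189113-26189232, minus strand): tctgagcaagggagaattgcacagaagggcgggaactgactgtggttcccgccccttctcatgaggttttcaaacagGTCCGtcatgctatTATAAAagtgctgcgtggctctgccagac
HIST1H4E (chr6:26204490-26204609, plus strand): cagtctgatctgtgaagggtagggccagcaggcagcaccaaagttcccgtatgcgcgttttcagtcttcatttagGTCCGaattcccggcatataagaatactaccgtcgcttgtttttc
HIST1H4H (chr6:26285535-26285654, minus strand): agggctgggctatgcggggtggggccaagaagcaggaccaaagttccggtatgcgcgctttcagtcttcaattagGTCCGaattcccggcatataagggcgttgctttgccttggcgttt
HIST4H4 (chr12:14771132-14771251, minus strand): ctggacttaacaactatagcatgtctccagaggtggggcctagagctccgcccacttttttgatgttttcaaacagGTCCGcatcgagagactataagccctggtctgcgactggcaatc
HIST1H4G (chr6:26246997-26247116, minus strand): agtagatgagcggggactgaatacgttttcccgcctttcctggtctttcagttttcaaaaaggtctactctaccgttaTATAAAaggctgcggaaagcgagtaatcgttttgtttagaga
HIST1H3A (chr6:26020331-26020450, plus strand): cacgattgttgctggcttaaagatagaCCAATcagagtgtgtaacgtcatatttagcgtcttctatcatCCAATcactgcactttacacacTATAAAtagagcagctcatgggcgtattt
HIST1H3B (chr6:26032100-26032219, minus strand): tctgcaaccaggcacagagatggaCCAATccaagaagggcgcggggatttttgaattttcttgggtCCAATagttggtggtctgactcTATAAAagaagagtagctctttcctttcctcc
HIST1H3H (chr6:27809931-27810050, plus strand): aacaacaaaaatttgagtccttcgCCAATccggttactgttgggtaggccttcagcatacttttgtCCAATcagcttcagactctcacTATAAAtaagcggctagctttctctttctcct
Set side by side without gaps, HIST1H4E and HIST1H4H had the same base at 90 of these 120 positions (75.0%). A match to a motif describes the letters and was not tested as a binding site.

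Replicate arrays correlated with r from 0.995 to 0.998, and no pair of arrays or of members held identical values. Day 3 formed its own set of arrays and was tested apart by limma, and a gene was called at a Benjamini-Hochberg adjusted p under 0.05 over all 22069 genes. All values are log2 expression values, and differences are log2 fold changes. CASP8AP2 was left at 55.5%, 59.1% and 58.7% of control in RPE1 and at 40.6%, 30.1% and 44.3% in U2OS on days 1, 2 and 3. NPAT was left at 40.3% in RPE1 and 33.3% in U2OS, and HINFP at 48.4% and 32%, and each fall was called. On the arrays, CASP8AP2 lay at 6.97, 6.99 and 7.02 in U2OS control cells of day 2 and at 5.23, 5.20 and 5.34 after its siRNA, and HINFP lay at 7.10 and 6.86 and 5.61 and 5.07 in U2OS on day 3. The depth of knockdown differed between the lines beside every difference between lines below, and its part in them was not tested. Of the markers fixed for each tissue of origin, 2 retinal (RLBP1 and BEST1) and 2 bone genes (RUNX2 and IBSP) could be paired with a gene of the table, and the rest were not analysed here. RLBP1, BEST1 and IBSP were low in both lines, and RUNX2 was higher in RPE1 than in U2OS, so these markers did not separate the lines by their labels.

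In U2OS cells CASP8AP2 siRNA lowered genes of both families. HIST1H3A (ENSG00000198366_at), HIST1H3B (ENSG00000124693_at), HIST1H3D (ENSG00000197409_at) and HIST1H3H (ENSG00000203813_at) fell together with HIST1H4A (ENSG00000196176_at), HIST1H4B (ENSG00000124529_at) and HIST1H4C (ENSG00000197061_at) on all 3 days. On day 2, 7 of 11 H3 genes and 6 of 12 H4 genes fell, while 1 H3 gene and 2 H4 genes rose. Over all genes of the table, 13.1% were lower and 11.8% higher in that comparison. The median log2 fold change was -0.57 over the H3 genes and -0.27 over the H4 genes, beside -0.01 over all genes.

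HIST1H4A encodes the common H4 protein and showed the deepest fall of any member. It lay at 9.02, 8.91 and 8.87 on the control arrays of day 2 and at 6.45, 6.65 and 7.00 after CASP8AP2 siRNA. Every siRNA array was below every control array, the difference being -2.24 ± 0.15 (SE, adjusted p = 5.32e-10), or 21.2% of control. HIST1H3H, an H3 gene, lay at 12.09, 12.07 and 12.03 and at 10.18, 10.09 and 10.24, which was -1.89 ± 0.08 (adjusted p = 5.76e-13). HIST1H3A lay at 11.40, 11.40 and 11.41 in control cells and 9.42, 9.53 and 9.73 after the siRNA. Its groups also did not overlap, with a difference of -1.85 ± 0.11. HIST1H4C lay at 10.46, 10.30 and 10.34 and 9.09, 9.19 and 9.37, and HIST1H4B at 10.96, 11.11 and 11.24 and 9.60, 9.55 and 9.70. These falls of -1.15 and -1.49 were both called, with adjusted p of 6.72e-08 and 6.62e-11.

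Some H4 genes went the other way in the same U2OS cells. HIST1H4H (ENSG00000158406_at), a further copy that encodes H4, lay at 10.54, 10.62 and 10.69 under control siRNA on day 2 and at 12.45, 12.29 and 12.44 under CASP8AP2 siRNA. All siRNA arrays were above all control arrays, and the rise was 1.78 ± 0.18, or 3.44-fold (adjusted p = 1.7e-07). HIST1H4I (ENSG00000198339_at) rose by 0.95, and HIST1H3E (ENSG00000196966_at), the H3 gene that rose, by 0.40. HIST1H4D (ENSG00000188987_at) fell with a log2 fold change of -1.01, HIST1H4L (ENSG00000198558_at) of -0.48 and HIST1H4F (ENSG00000198327_at) of -0.35. HIST1H3F (ENSG00000256316_at), HIST1H3G (ENSG00000256018_at) and HIST3H3 (ENSG00000168148_at), the last of them known as a testis H3 gene, fell with log2 fold changes of -0.63, -0.57 and -0.39. These 3 H3 genes, as well as HIST1H3E, HIST1H4L and HIST1H4F, are among the 10 members with a mean level below the median of all genes. There a fold change on an array is compressed. The calls were lost for HIST1H3E without any 1 of the arrays except CASP8AP2 replicate 1 or CASP8AP2 replicate 2 (0.20 to 0.43), for HIST3H3 without any 1 of the arrays except control replicate 2 or CASP8AP2 replicate 3 (-0.41 to -0.30) and for HIST1H4F without control replicate 3 (-0.27).

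Day 1 and day 3 held fewer calls in U2OS. On day 1, 5 H3 and 5 H4 genes fell and 1 H4 gene rose, beside 3.01% lower and 2.86% higher over all genes, and on day 3 4 H3 and 3 H4 genes fell and 1 H3 and 1 H4 gene rose, beside 11% and 7.91%. HIST1H3H fell most among H3 genes on day 1 (-1.80, adjusted p = 1.78e-11) and HIST1H3A on day 3 (-1.10, adjusted p = 0.000497). Among H4 genes HIST1H4A fell most on both days (-1.69 and -1.22), and HIST1H4H rose on both (0.76 and 1.69). HIST1H3C (ENSG00000196532_at) fell on day 1 (-0.30) and rose on day 3 (0.48). In U2OS control cells this gene lay far below its level in RPE1 (-4.30 on day 1 and -3.59 on day 3). On day 1 it was below the median of every array (5.44 to 5.67), where a fold change is compressed. Of the day 1 calls, that of HIST1H3C was lost without any 1 of the arrays except control replicate 1 or control replicate 2 or CASP8AP2 replicate 1 (-0.30 to -0.29) and that of HIST1H4H without any 1 of the arrays except control replicate 1 or control replicate 3 or CASP8AP2 replicate 3 (0.69 to 0.72). Of the day 3 calls, that of HIST1H3C was lost without any 1 of the arrays except control replicate 2 (0.20 to 0.53), of HIST1H3D without any 1 of the arrays except CASP8AP2 replicate 2 (-0.88 to -0.66), of HIST1H4B without any 1 of the arrays except control replicate 2 (-0.55 to -0.37) and of HIST1H4C without control replicate 1 (-0.74) or CASP8AP2 replicate 1 (-0.71).

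From day 1 to day 2 the CASP8AP2 effect in U2OS grew for 4 members. The effect on day 2 minus that on day 1 was -0.40 for HIST1H3B and -0.64 for HIST1H4B, which fell, and 1.03 for HIST1H4H and 1.00 for HIST1H4I, which rose. The difference between days was called for 7.04% of all genes in U2OS and 0.652% in RPE1, where 0 members were called by limma (1 H3 and 3 H4 genes had an unadjusted p under 0.05).

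In RPE1 cells the same siRNA raised some members and lowered others. HIST1H3D, HIST1H3E, HIST1H4H and HIST1H4I rose on all 3 days, while HIST1H3A and HIST1H3H fell on all 3 days. On day 2, 2 H3 and 4 H4 genes rose and 3 H3 and 3 H4 genes fell, beside 4.25% higher and 2.16% lower over all genes. On day 1, 2 H3 and 2 H4 genes rose and 3 and 2 fell, beside 0.449% and 0.344%. On day 3, 2 H3 and 4 H4 genes rose and 2 and 0 fell, beside 3.62% and 2.54%.

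HIST1H4H showed the greatest rise of any member in any siRNA comparison. It lay at 8.37, 8.13 and 8.94 on the RPE1 control arrays of day 2 and at 11.76, 11.75 and 11.87 after CASP8AP2 siRNA, a rise of 3.31 ± 0.18 or 9.92-fold (adjusted p = 5.33e-11). The groups did not overlap, and the rises on days 1 and 3 were 2.33 and 2.48. HIST1H3D lay at 6.87, 6.96 and 6.47 in control cells and at 9.14, 9.40 and 9.76 under the siRNA. Its rise of 2.67 ± 0.15, or 6.35-fold (adjusted p = 9.37e-11), was followed by 2.72 on day 3. HIST1H3E lay at 5.18, 4.78 and 4.83 and 6.12, 6.39 and 5.90, again without overlap, and rose by 1.21. HIST1H4I rose by 1.08, 1.37 and 0.83 on days 1, 2 and 3. HIST1H4E (ENSG00000198518_at) and HIST4H4 (ENSG00000197837_at), an H4 gene that lies apart from the main cluster, rose on days 2 and 3, by 0.74 and 0.92 and by 0.54 and 0.47.

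HIST1H3A showed the deepest fall of a member in RPE1, at -1.07 ± 0.11 on day 1 (adjusted p = 7.64e-06). It lay at 9.29, 9.54 and 9.33 in control cells of day 2 and at 8.66, 8.61 and 8.47 under CASP8AP2 siRNA, a difference of -0.81 ± 0.11 (adjusted p = 5.29e-05) without overlap. HIST1H3H lay at 12.57, 12.60 and 12.51 and 12.17, 12.22 and 12.20, a difference of -0.36 ± 0.08, beside -0.46 on day 1 and -0.50 on day 3. HIST1H4A and HIST1H4C fell on days 1 and 2, by log2 fold changes of -0.70 and -0.56 and of -0.49 and -0.47. HIST1H3C fell on those days, with log2 fold changes of -0.34 and -0.34, and HIST1H4B on day 2 (-0.30). The day 1 calls of HIST1H3C and HIST1H4C were also lost with all 40 arrays in 1 fit and with the replicate number as a block.

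Leaving out single arrays ended several of the weaker RPE1 calls. On day 1 the call of HIST1H3C was lost without any 1 of the arrays except CASP8AP2 replicate 3 (-0.37 to -0.24), of HIST1H4A without any 1 of the arrays except control replicate 3 or CASP8AP2 replicate 3 (-0.77 to -0.54) and of HIST1H4C without any 1 of the arrays except CASP8AP2 replicate 3 (-0.55 to -0.34). On day 2 that of HIST1H4A was lost without any 1 of the arrays except control replicate 1 or control replicate 3 or CASP8AP2 replicate 2 (-0.55 to -0.42), of HIST1H4B without any 1 of the arrays except CASP8AP2 replicate 3 (-0.30 to -0.22), of HIST1H4C without CASP8AP2 replicate 3 (-0.37), of HIST1H4E without control replicate 1 (0.57) or CASP8AP2 replicate 1 (0.65) and of HIST4H4 without any 1 of the arrays except control replicate 2 or CASP8AP2 replicate 2 (0.45 to 0.54). On day 3 that of HIST1H3A was lost without any 1 of the arrays except control replicate 1 (-0.70 to -0.50), of HIST1H3H without any 1 of the arrays except control replicate 1 (-0.52 to -0.40), of HIST1H4E without any 1 of the arrays except control replicate 1 (0.48 to 1.07), of HIST1H4I without any 1 of the arrays except control replicate 1 (0.47 to 0.85) and of HIST4H4 without any 1 of the arrays (0.41 to 0.53). The rises of HIST1H3D, HIST1H3E and HIST1H4H kept their calls on all 3 days whichever array was left out.

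**Figure D1:**
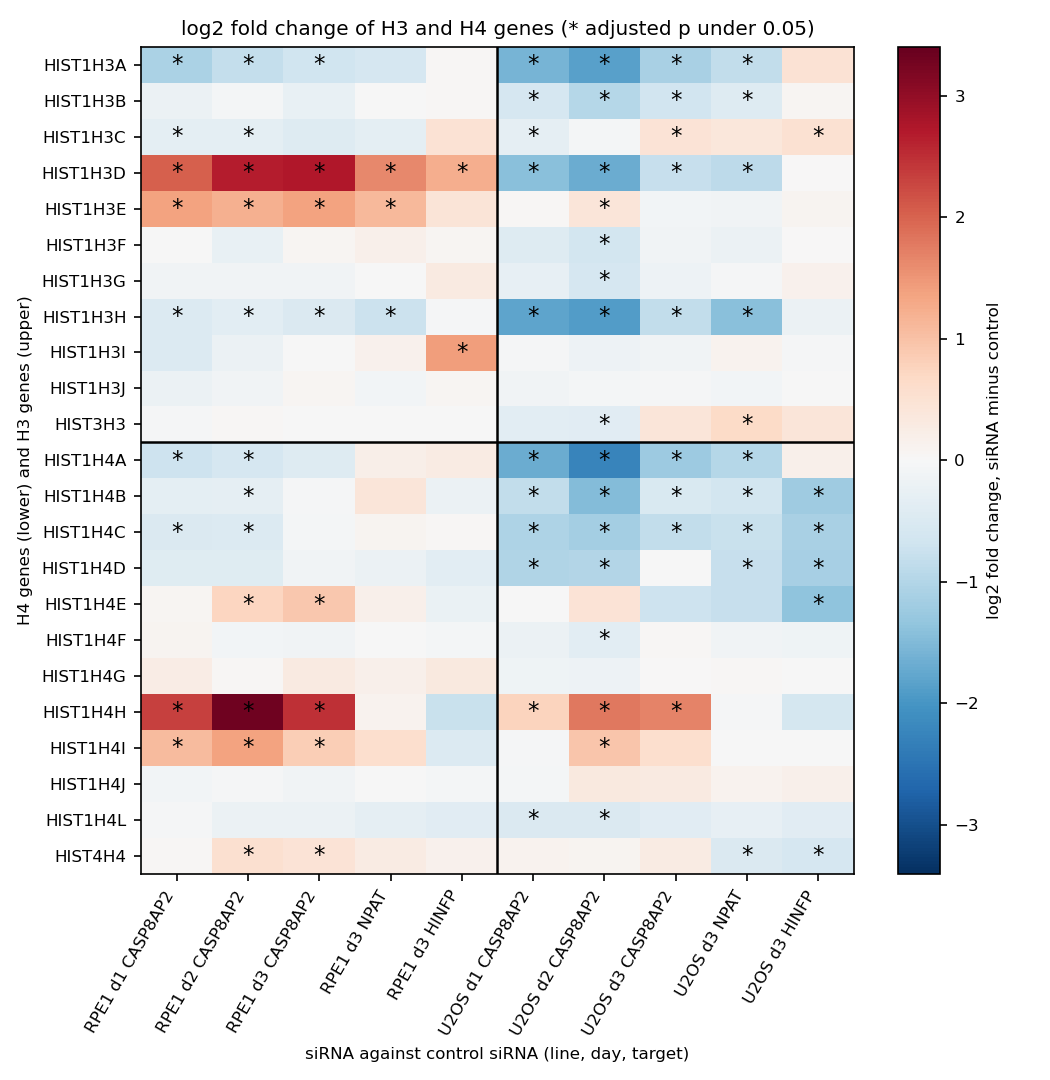
Log2 fold change of the 11 H3 genes (upper rows) and 12 H4 genes (lower rows) in the 10 comparisons of an siRNA with control siRNA (columns), red for higher and blue for lower, with an asterisk at an adjusted p under 0.05. HIST1H3D was red in RPE1 and blue in U2OS under CASP8AP2 siRNA, HIST1H4H was red in both lines, and under HINFP siRNA in U2OS the 5 lower calls were all H4 genes.

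NPAT siRNA lowered H3 and H4 genes side by side in U2OS on day 3. HIST1H3A, HIST1H3B, HIST1H3D and HIST1H3H fell among the H3 genes (4 of 11), and HIST1H4A, HIST1H4B, HIST1H4C, HIST1H4D and HIST4H4 among the H4 genes (5 of 12), beside 4.29% lower over all genes. HIST3H3 rose (0.66), beside 3.84% higher over all genes. HIST1H3H lay at 10.54 and 10.62 in control cells and at 9.13 and 9.16 under NPAT siRNA, a difference of -1.43 ± 0.11 (adjusted p = 1.07e-05). HIST1H4A lay at 8.65 and 8.69 and 7.67 and 7.74, a difference of -0.96 ± 0.16 (adjusted p = 0.00326). Neither pair of groups overlapped. HIST1H4H, which rose under CASP8AP2 siRNA, lay at 10.16 and 10.01 under control and 10.15 and 9.93 under NPAT siRNA, where the groups overlapped.

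In RPE1 on day 3 NPAT siRNA raised HIST1H3D (1.63) and HIST1H3E (1.11) and lowered HIST1H3H (-0.72). Over all genes 2.37% were higher and 2.67% lower. Of the H4 genes 0 were called by limma, with 4 of 12 at an unadjusted p under 0.05. HIST1H3D lay at 6.32 and 7.22 in control cells and at 8.48 and 8.32 under NPAT siRNA, and the 2 control arrays stood farther apart than the 2 siRNA arrays. The RPE1 calls were kept whichever array was left out. In U2OS the calls of HIST1H3A were lost without control replicate 1 (-0.79) or NPAT replicate 2 (-0.78), of HIST1H3B without any 1 of the arrays (-0.50 to -0.37), of HIST1H3D without any 1 of the arrays (-0.98 to -0.79), of HIST3H3 without any 1 of the arrays except NPAT replicate 2 (0.44 to 0.75), of HIST1H4B without any 1 of the arrays except control replicate 2 (-0.67 to -0.48), of HIST1H4C without any 1 of the arrays (-0.84 to -0.66) and of HIST4H4 without any 1 of the arrays except control replicate 2 (-0.55 to -0.36).

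Under HINFP siRNA in U2OS all lower calls were H4 genes. HIST1H4B, HIST1H4C, HIST1H4D, HIST1H4E and HIST4H4 fell (5 of 12 H4 genes), 0 of 11 H3 genes fell by limma, and HIST1H3C, a gene of low level in U2OS, rose (0.52). Over all genes 4.84% were lower and 4.59% higher. 3 of the 11 H3 genes had an unadjusted p under 0.05, and none of these was lower than control. The median log2 fold change was -0.48 over the H4 genes and 0.06 over the H3 genes, beside -0.01 over all genes.

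HIST1H4E lay at 10.36 and 10.20 on the U2OS control arrays and at 9.27 and 8.54 under HINFP siRNA, the largest fall of an H4 gene there at -1.37 ± 0.25 (adjusted p = 0.00437). HIST1H4B lay at 10.84 and 10.52 and 9.74 and 9.23, a difference of -1.20 ± 0.15 (adjusted p = 0.000288). HIST1H4D lay at 7.47 and 7.54 and 6.60 and 6.18, a difference of -1.12 ± 0.13, and HIST1H4C at 11.36 and 11.18 and 10.55 and 9.80, a difference of -1.09 ± 0.19. In all 4 genes both HINFP siRNA arrays lay below both control arrays, and replicate 2 was the lower of the pair. HIST4H4 fell by a log2 fold change of -0.57. HIST1H4A, an H4 gene with no promoter entry here, lay at 8.65 and 8.69 in control cells and 8.83 and 8.86 under HINFP siRNA (0.18, adjusted p = 0.605). The H3 genes that fell under NPAT siRNA gave 0.50 for HIST1H3A, 0.06 for HIST1H3B, 0.01 for HIST1H3D and -0.19 for HIST1H3H, none of them called. The call of HIST1H3C was lost without any 1 of the arrays except control replicate 2 (0.25 to 0.54), of HIST1H4E without HINFP replicate 2 (-1.01) and of HIST4H4 without control replicate 1 (-0.43) or HINFP replicate 2 (-0.40).

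In RPE1 HINFP siRNA raised HIST1H3D (1.23) and HIST1H3I (ENSG00000182572_at; 1.43), and 0 H4 genes were called by limma, with 5 of 12 at an unadjusted p under 0.05. Over all genes 2.13% were higher and 2.01% lower. HIST1H3I lay at 4.72 and 4.75 in control cells and 6.37 and 5.94 under HINFP siRNA, 2.69-fold higher (adjusted p = 7.83e-05), and between 4.60 and 4.97 on the other day 3 arrays of both lines. The mean level of HIST1H3I on day 3 was below the median of all genes. HIST1H4H lay at 9.13 and 8.63 and 8.42 and 7.84, below control on both arrays but not called (-0.75, adjusted p = 0.0772). The call of HIST1H3D was lost without HINFP replicate 1 (1.02), and 1 or 2 H4 genes were called as lower when all 40 arrays were fitted together, when only genes above the median level were tested or with the replicate as a block.

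**Figure D2:**
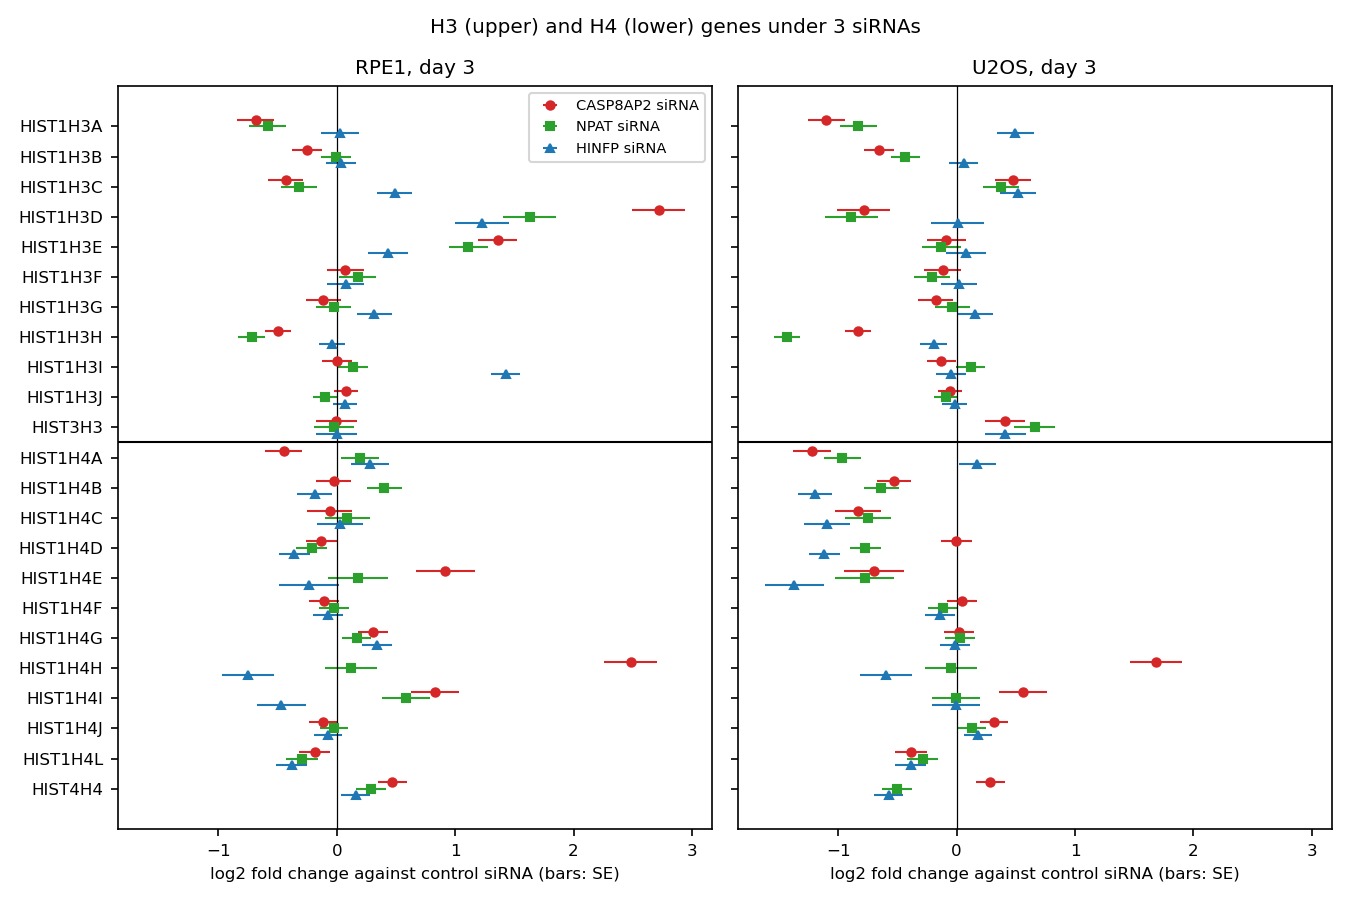
Log2 fold change against control siRNA on day 3 (x axis, bars show the SE of the fit) for each H3 gene (above the line) and H4 gene (below it) under CASP8AP2, NPAT and HINFP siRNA, with RPE1 on the left and U2OS on the right. In U2OS the HINFP points of HIST1H4B to HIST1H4E lay between -1.37 and -1.09, while those of the H3 genes lay between -0.19 and 0.52.

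The siRNAs were then compared directly within each line on day 3, with no control array in the difference itself, although all 16 arrays of day 3 shared the estimate of the spread. With the compared groups fitted alone, calls for HINFP against CASP8AP2 siRNA in U2OS numbered 1 in place of 5 H4 genes and 1 in place of 3 H3 genes. In U2OS, HIST1H3A (1.33), HIST1H3B (0.49), HIST1H3D (0.90), HIST1H3H (1.24) and HIST1H4A (1.14) were higher under HINFP than under NPAT siRNA, and 0 H4 genes were called lower by limma, although HIST1H4B, HIST1H4D, HIST1H4E and HIST1H4H were lower at an unadjusted p under 0.05, beside 4.04% of all genes called. Under HINFP against CASP8AP2 siRNA 3 H3 genes and HIST1H4A were higher, led by HIST1H3A (1.60), and 4 H4 genes were lower, led by HIST1H4H (-2.29), beside 5.6%. Of these 8 calls 2 were kept under every other setting run, and the call was lost for HIST1H3B without CASP8AP2 replicate 1 (0.58) or HINFP replicate 1 (0.56), for HIST1H3H without CASP8AP2 replicate 1 (0.49) or HINFP replicate 2 (0.58) and for HIST1H4B without any 1 of the arrays except HINFP replicate 1 (-0.69 to -0.41). Under NPAT against CASP8AP2 siRNA HIST1H3H (-0.60), HIST1H4D (-0.77), HIST1H4H (-1.74) and HIST4H4 (-0.79) were lower, beside 3.5%. In RPE1, HIST1H4H was lower under HINFP than under CASP8AP2 siRNA (-3.23), lower under NPAT than under CASP8AP2 siRNA (-2.36) and lower under HINFP than under NPAT siRNA (-0.87), where 3.81%, 2.38% and 3.63% of all genes were called. HIST1H3I was higher under HINFP than under either other siRNA (1.43 and 1.29). Both families held calls either way in RPE1. Against CASP8AP2 siRNA, HINFP siRNA gave higher values of HIST1H3A (0.71), HIST1H3C (0.92), HIST1H3H (0.46) and HIST1H4A (0.73) and lower values of HIST1H3D (-1.49), HIST1H3E (-0.93), HIST1H4E (-1.15) and HIST1H4I (-1.29). Against NPAT siRNA, HIST1H3C (0.81) and HIST1H3H (0.68) were higher and HIST1H3E (-0.68), HIST1H4B (-0.59) and HIST1H4I (-1.05) lower. Under NPAT against CASP8AP2 siRNA HIST1H3D was also lower (-1.09). Leaving out 1 array ended 6 of the 10, 6 of the 7 and 1 of the 2 calls of HINFP against CASP8AP2, HINFP against NPAT and NPAT against CASP8AP2 siRNA in RPE1. In RPE1 the call of HIST1H4H between HINFP and NPAT siRNA was lost without any 1 of the arrays (-1.16 to -0.58). In U2OS the call of HIST1H3B between HINFP and NPAT siRNA was lost without any 1 array except HINFP replicate 2 (0.34 to 0.51). That of HIST1H3D in U2OS was lost without any 1 of the arrays (0.80 to 0.99). The call between NPAT and CASP8AP2 siRNA in U2OS was lost for HIST1H3H without any 1 of the arrays except CASP8AP2 replicate 1 (-0.61 to -0.45), for HIST1H4D without CASP8AP2 replicate 1 (-0.68) or NPAT replicate 2 (-0.69) and for HIST4H4 without CASP8AP2 replicate 1 (-0.70).

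H4 was set against H3 on every array as the mean log2 difference of the 12 H4 genes from the control mean of the same line and day, minus the same mean over the 11 H3 genes. This score is a description and carries no test. Control arrays are 0 on average by construction, with single arrays from -0.10 to 0.10 on the first 2 days and from -0.14 to 0.14 on day 3. Under CASP8AP2 siRNA the score was 0.11 ± 0.05 (SD, n = 3) on day 1 and 0.18 ± 0.08 on day 2 in RPE1, and 0.24 ± 0.11 and 0.44 ± 0.11 in U2OS. The arrays of U2OS on day 2 gave 0.54, 0.33 and 0.46, the highest group by this mean, with H3 at -0.72 and H4 at -0.27. As a median over members it was 0.23, and RPE1 stood at 0.24 on day 1 and 0.034 on day 2. The H4 means held the rises of HIST1H4H, which in RPE1 were 2.33, 3.31 and 2.48 on days 1, 2 and 3. The RPE1 H3 means held those of HIST1H3D (2.03, 2.67 and 2.72), and the score without these genes was not computed. On day 3 (n = 2) CASP8AP2 siRNA gave 0.12 ± 0.06 in RPE1 and 0.21 ± 0.01 in U2OS, and NPAT siRNA 0.01 ± 0.01 and -0.13 ± 0.01.

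Under HINFP siRNA the score was negative in both lines, at -0.56 and -0.46 in RPE1 and -0.51 and -0.79 in U2OS. All 4 HINFP arrays lay below all other day 3 arrays. In U2OS the H4 mean was -0.51 and the H3 mean 0.14, whereas in RPE1 the H3 mean was 0.37 and the H4 mean -0.14. In RPE1 the medians over members were nearer to 0, at 0.08 for H3 and -0.13 for H4, and the H3 mean held the rises of HIST1H3D and HIST1H3I. Taken as a median over members, the score was -0.28 in RPE1 and -0.56 in U2OS under HINFP siRNA, and -0.25 in U2OS under NPAT siRNA.

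**Figure D3:**
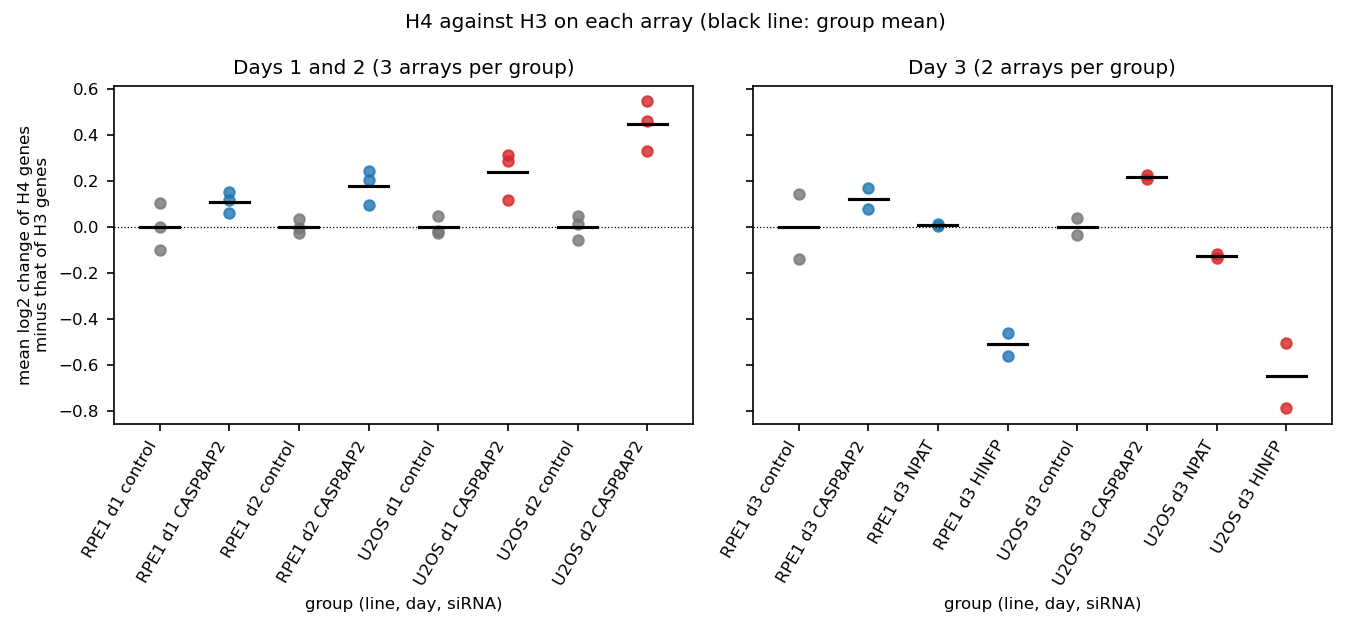
Mean log2 change of the H4 genes minus that of the H3 genes on each array (y axis, 1 point per array, black line for the group mean) by line, day and siRNA, with control arrays in grey, RPE1 in blue and U2OS in red. The HINFP arrays lay between -0.79 and -0.46, below every other array, and U2OS under CASP8AP2 siRNA on day 2 lay highest, between 0.33 and 0.54.

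The lines differed in the effect of the siRNAs on the same members, which was tested as the effect in U2OS minus that in RPE1. HIST1H3D was called in opposite directions in the lines under CASP8AP2 siRNA on all 3 days and under NPAT siRNA. It lay at 12.63, 12.55 and 12.77 in U2OS control cells of day 2 and at 10.96, 10.80 and 11.15 under CASP8AP2 siRNA, against the rise from 6.87, 6.96 and 6.47 to 9.14, 9.40 and 9.76 in RPE1, and the difference of effects was -4.35 ± 0.21 (adjusted p = 3.85e-11). The siRNA arrays of the lines thus lay nearer to each other than the control arrays did. For CASP8AP2 siRNA 3 H3 and 3 H4 genes differed between the lines on day 1, 5 and 4 on day 2 and 3 and 2 on day 3, beside 0.689%, 9.39% and 9.55% of all genes. For NPAT siRNA 3 H3 and 3 H4 genes differed, beside 3.46%, and for HINFP siRNA 1 H3 gene, HIST1H3I, and 4 H4 genes, beside 3.15%. Apart from HIST1H3C on day 3, a gene of low level in U2OS, each of these effects was lower in U2OS.

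Under control siRNA alone, many members already differed between the lines, as did 43.8% to 50.8% of all genes. HIST1H3D was higher in U2OS by 4.64, 5.88 and 5.38 on days 1, 2 and 3. HIST1H3C was lower by -4.30, -3.89 and -3.59 as log2 fold changes, with 9.13, 9.22 and 9.08 on the RPE1 arrays of day 1 and 4.85, 4.82 and 4.87 on those of U2OS. HIST1H4H (2.09, 2.13 and 1.21), HIST1H4I (1.69, 2.42 and 1.42), HIST1H3A (1.45, 2.02 and 2.46) and HIST4H4 (0.72, 1.02 and 1.14) were also higher in U2OS on the 3 days. HIST1H4D (-1.59, -1.36 and -2.01) and HIST1H3H (-1.26, -0.50 and -1.50) were lower. In all, 7 H3 and 5 H4 genes differed on day 1, 7 and 8 on day 2, and 6 and 8 on day 3, beside 48.7%, 50.8% and 43.8% of all genes.

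**Figure D4:**
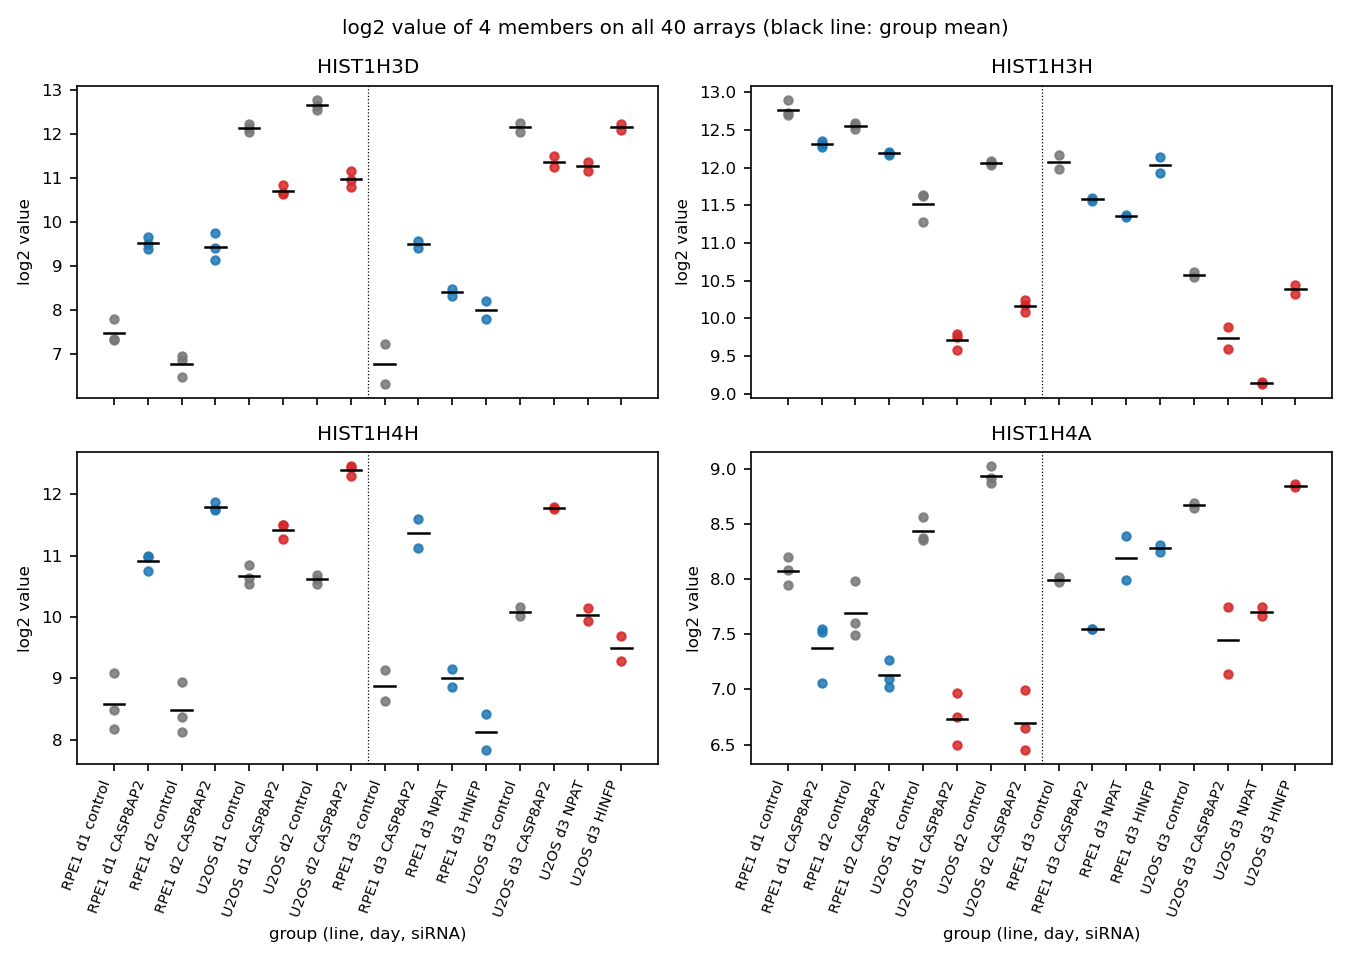
Log2 values of HIST1H3D, HIST1H3H, HIST1H4H and HIST1H4A on all 40 arrays (1 point per array, black line for the group mean) by line, day and siRNA, with control arrays in grey, RPE1 in blue, U2OS in red and a dotted line between the separately fitted sets. HIST1H3D rose in RPE1 and fell in U2OS under CASP8AP2 siRNA, and HIST1H4H rose in both.

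HIST1H3J (ENSG00000197153_at), HIST1H4G (ENSG00000124578_at) and HIST1H4J (ENSG00000197238_at) were not called in any of the 10 siRNA comparisons, where their log2 fold changes lay between -0.20 and 0.34. Their mean levels were below the median of all genes in both sets, so a change of these genes is hard to see on the array. HIST1H4G encodes a protein that diverges from the common H4, which the other H4 genes share. Whether a probe set also read related gene copies was not tested.

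Other genes were read as whole lists. Of 29 genes of histone supply, which code for regulators, processing factors and chaperones, 10 could be paired with an Ensembl gene of the table, and the other 19 were not analysed here. Most calls came under CASP8AP2 siRNA in U2OS on day 2, where 6 were lower, CASP8AP2 itself among them, and 1 was higher. That comparison also had the most calls over all genes (13.1% lower and 11.8% higher). In the other siRNA comparisons 1 to 4 were called, each time with the target of the siRNA among them. Over all genes 0.344% to 11% were lower and 0.449% to 7.91% higher there. Of 24 S phase genes 16 could be paired. Under CASP8AP2 siRNA on day 1, 0 of the 16 were called in either line by limma (1 and 3 at an unadjusted p under 0.05 in RPE1 and U2OS). Their log2 fold changes lay from -0.28 to 0.21. Over all genes 0.344% were lower and 0.449% higher in RPE1, and 3.01% and 2.86% in U2OS, so a count of 0 among 16 is near those shares. On day 2 in U2OS 10 of the 16 were lower and 1 higher, with a median of -0.22, beside 13.1% lower and 11.8% higher over all genes. Under NPAT siRNA in RPE1 4 of the 16 were higher, beside 2.37% of all genes, and under HINFP siRNA 3 in RPE1 and 1 in U2OS were lower, beside 2.01% and 4.84%. Of 8 genes listed as replacement histone genes, H1F0 and H2AFX could be paired. H1F0, a linker histone gene, rose in RPE1 under CASP8AP2 siRNA (2.29, 2.46 and 1.99) and NPAT siRNA (1.34), and fell under HINFP siRNA in RPE1 (-0.64) and U2OS (-1.68). H2AFX was not called in any of the 10 comparisons. A change in the share of cells in S phase and a change in histone RNA per S phase cell cannot be told apart in these bulk samples.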

How the data were processed

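Total RNA was hybridised to Affymetrix arrays. Per the labels and methods, the authors summarised the arrays by RMA with the affy package and a custom CDF holding 1 probe set per Ensembl gene, and deposited log2 values. The versions and genome build of the CDF are not given in the sources used here. RMA sets the arrays to a common distribution, so a difference is measured against the rest of the genes. Arrays of days 1 and 2 (24 arrays) and of day 3 (16 arrays) differ in mean level and were fitted apart.

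From the deposited log2 values, lmFit and eBayes of limma 3.58.1 (R 4.3.3) were run on all 22069 genes with 1 mean per group and no replicate block, two-sided, with Benjamini-Hochberg adjustment over all genes and a threshold of 0.05. There were 26 contrasts, 10 of them of an siRNA with control. Comparisons on 1 day in 1 line share their control arrays. Residual degrees of freedom were 16 and 8, and the median SE of an siRNA effect was 0.087 and 0.114. Precision is limited by how many arrays there were. The code was tested on simulated data.

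Values on each array are given for the 4 H3 and 4 H4 genes called in the most of the 10 comparisons, with ties broken by the smallest adjusted p, and for further genes with the most extreme calls or those the results turn on. The latter were chosen after their values were seen. The members and lists were chosen with earlier results of these data known. Symbols were paired with Ensembl genes through the study's own list and RefSeq tables. Alternatives were other sets of arrays in the fit, 3 further normalizations, a filter on dim genes, another prior, the replicate block and leaving out each array. Promoters came from RefSeq, and no protein sequence was used here.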

Additional observations from a re-analysis of the deposited data

Results flagged for a closer look

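The effect of an siRNA on a member differed between the lines at an adjusted p under 0.05 (limma, test of the difference) in 31 cases, given as the log2 effect in U2OS minus that in RPE1. For CASP8AP2 siRNA on day 1 the differences were -3.45 for HIST1H3D, -1.32 for HIST1H3E, -1.35 for HIST1H3H, -0.99 for HIST1H4A, -1.57 for HIST1H4H and -0.47 for HIST1H4L, and 4 of these 6 calls were kept whichever array was left out. For CASP8AP2 siRNA on day 2 the differences were -1.04 for HIST1H3A, -0.91 for HIST1H3B, -4.35 for HIST1H3D, -0.81 for HIST1H3E, -1.53 for HIST1H3H, -1.67 for HIST1H4A, -1.19 for HIST1H4B, -0.68 for HIST1H4C and -1.53 for HIST1H4H, and 9 of these 9 calls were kept whichever array was left out. For CASP8AP2 siRNA on day 3 the differences were 0.91 for HIST1H3C, -3.50 for HIST1H3D, -1.45 for HIST1H3E, -0.77 for HIST1H4A and -1.61 for HIST1H4E, and 2 of these 5 calls were kept whichever array was left out. For NPAT siRNA on day 3 the differences were -2.52 for HIST1H3D, -1.24 for HIST1H3E, -0.71 for HIST1H3H, -1.16 for HIST1H4A, -1.04 for HIST1H4B and -0.79 for HIST4H4, and 1 of these 6 calls was kept whichever array was left out. For HINFP siRNA on day 3 the differences were -1.48 for HIST1H3I, -1.01 for HIST1H4B, -1.12 for HIST1H4C, -0.76 for HIST1H4D and -0.73 for HIST4H4, and 1 of these 5 calls was kept whichever array was left out. The effect of CASP8AP2 siRNA in U2OS also differed between day 2 and day 1, by -0.40 for HIST1H3B, -0.64 for HIST1H4B, 1.03 for HIST1H4H and 1.00 for HIST1H4I, where all but the call of HIST1H4I were kept whichever array was left out. The share of each target left was lower in U2OS, and its part in these differences was not tested. Groups of 2 or 3 arrays are too small for a test of single outlying arrays.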

How the results depend on the processing

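The deposited values allowed 8 other settings and the removal of each array. Calls of the 8 genes described on each array gave 54 pairs of gene and comparison, of which 400 of 427 other settings and 223 of 276 removals of an array kept the call, 0 reversed it and the rest lost it. These 8 genes were chosen as those called most often, so the shares do not describe the other members. Over all members, 13 of 16 calls for U2OS day 2 CASP8AP2 were kept whichever array was left out. For U2OS day 3 NPAT 3 of 10 were kept. Replicate numbers did not pair the samples of days 1 and 2, where siRNA and control arrays of the same number deviated with r from -0.102 to 0.0579. There 2 of 12 siRNA arrays correlated best with the control array of their own number. On day 3 r ran from -0.0748 to 0.205 (8 of 12), but with 2 arrays per group both arrays of a group must give the same r. This check therefore cannot tell whether the day 3 replicates were paired, and the block is given as a value only. With the groups of each contrast fitted alone, calls numbered 3 in place of 5 H3 genes for RPE1 day 1 CASP8AP2, 1 in place of 4 H4 genes for RPE1 day 1 CASP8AP2, 4 in place of 7 H4 genes for RPE1 day 2 CASP8AP2, 2 in place of 4 H3 genes for RPE1 day 3 CASP8AP2, 1 in place of 4 H4 genes for RPE1 day 3 CASP8AP2, 1 in place of 3 H3 genes for RPE1 day 3 NPAT, 1 in place of 2 H3 genes for RPE1 day 3 HINFP, 0 in place of 1 H3 genes for U2OS day 3 HINFP, 3 in place of 5 H4 genes for U2OS day 3 HINFP, 1 in place of 3 H4 genes for line difference day 1 CASP8AP2, 1 in place of 2 H4 genes for line difference day 3 CASP8AP2, 0 in place of 4 H4 genes for line difference day 3 HINFP, 2 in place of 4 H3 genes for RPE1 day 3 HINFP against NPAT, 1 in place of 3 H4 genes for RPE1 day 3 HINFP against NPAT, 1 in place of 3 H3 genes for U2OS day 3 HINFP against CASP8AP2, 1 in place of 5 H4 genes for U2OS day 3 HINFP against CASP8AP2, 0 in place of 1 H3 genes for U2OS day 3 NPAT against CASP8AP2 and 1 in place of 3 H4 genes for U2OS day 3 NPAT against CASP8AP2. With all 40 arrays in 1 fit, calls numbered 1 in place of 0 H4 genes for RPE1 day 3 NPAT, 2 in place of 0 H4 genes for RPE1 day 3 HINFP, 2 in place of 1 H3 genes for U2OS day 3 HINFP, 2 in place of 1 H3 genes for line difference day 3 HINFP, 3 in place of 1 H4 genes for RPE1 day 3 NPAT against CASP8AP2 and 2 in place of 1 H4 genes for U2OS day 3 HINFP against NPAT. With genes above the median level only, calls numbered 1 in place of 2 H3 genes for RPE1 day 3 HINFP, 1 in place of 0 H4 genes for RPE1 day 3 HINFP, 4 in place of 8 H3 genes for U2OS day 2 CASP8AP2, 2 in place of 1 H3 genes for U2OS day 3 HINFP, 2 in place of 1 H4 genes for RPE1 day 3 NPAT against CASP8AP2, 2 in place of 1 H4 genes for U2OS day 3 HINFP against NPAT and 4 in place of 7 H3 genes for control lines day 1. With an intensity trend and robust prior, calls numbered 2 in place of 4 H4 genes for RPE1 day 3 CASP8AP2, 2 in place of 1 H3 genes for U2OS day 3 HINFP, 2 in place of 4 H4 genes for line difference day 3 HINFP, 0 in place of 1 H3 genes for RPE1 day 3 NPAT against CASP8AP2, 2 in place of 1 H4 genes for RPE1 day 3 NPAT against CASP8AP2 and 2 in place of 1 H4 genes for U2OS day 3 HINFP against NPAT. With the replicate number as a block, calls numbered 1 in place of 0 H4 genes for RPE1 day 3 HINFP, 1 in place of 2 H4 genes for line difference day 3 CASP8AP2 and 2 in place of 1 H4 genes for U2OS day 3 HINFP against NPAT. Called members lost under the block were HIST1H3C and HIST1H4C for RPE1 day 1 CASP8AP2, HIST1H3E for U2OS day 2 CASP8AP2, HIST1H4L and HIST1H4A for line difference day 1 and day 3 CASP8AP2, and HIST1H3I for control lines day 1. With cyclic loess, calls numbered 2 in place of 1 H3 genes for U2OS day 3 HINFP, 1 in place of 2 H4 genes for line difference day 3 CASP8AP2, 2 in place of 4 H4 genes for line difference day 3 HINFP, 2 in place of 1 H4 genes for RPE1 day 3 NPAT against CASP8AP2 and 2 in place of 1 H4 genes for U2OS day 3 HINFP against NPAT. With quantile normalization, calls numbered 1 in place of 2 H4 genes for line difference day 3 CASP8AP2, 2 in place of 1 H4 genes for RPE1 day 3 NPAT against CASP8AP2 and 2 in place of 1 H4 genes for U2OS day 3 HINFP against NPAT. With each array centred on its median, calls numbered 2 in place of 1 H3 genes for line difference day 3 HINFP and 1 in place of 3 H4 genes for RPE1 day 3 HINFP against NPAT.

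As a median over members, the H4 minus H3 score was 0.24 for RPE1 day 1 CASP8AP2, 0.034 for RPE1 day 2 CASP8AP2, 0.23 for U2OS day 2 CASP8AP2, 0.12 for RPE1 day 3 NPAT, -0.28 for RPE1 day 3 HINFP, 0.19 for U2OS day 3 CASP8AP2 and -0.25 for U2OS day 3 NPAT. Without HIST3H3 and HIST1H4G, the H4 minus H3 score was -0.011 for RPE1 day 3 NPAT, -0.59 for RPE1 day 3 HINFP, 0.28 for U2OS day 3 CASP8AP2 and -0.074 for U2OS day 3 NPAT. With cyclic loess, the H4 minus H3 score was 0.23 for U2OS day 3 CASP8AP2. With quantile normalization, the H4 minus H3 score was 0.25 for U2OS day 3 CASP8AP2 and -0.11 for U2OS day 3 NPAT. Leaving out each array in turn, calls ranged over 2 to 4 H4 genes for RPE1 day 1 CASP8AP2, 3 to 6 H4 genes for RPE1 day 2 CASP8AP2, 2 to 4 H3 and 1 to 3 H4 genes for RPE1 day 3 CASP8AP2, 0 to 1 H4 genes for RPE1 day 3 NPAT, 1 to 2 H3 and 0 to 1 H4 genes for RPE1 day 3 HINFP, 3 to 4 H3 and 2 to 5 H4 genes for U2OS day 3 CASP8AP2, 1 to 3 H3 and 2 to 4 H4 genes for U2OS day 3 NPAT, 0 to 1 H3 and 3 to 6 H4 genes for U2OS day 3 HINFP, 3 to 5 H3 and 1 to 4 H4 genes for line difference day 1 CASP8AP2, 0 to 3 H4 genes for line difference day 3 CASP8AP2, 1 to 3 H3 and 0 to 3 H4 genes for line difference day 3 NPAT, 1 to 2 H3 and 0 to 5 H4 genes for line difference day 3 HINFP, 3 to 4 H3 and 2 H4 genes for RPE1 day 3 HINFP against CASP8AP2, 1 to 3 H3 and 0 to 1 H4 genes for RPE1 day 3 HINFP against NPAT, 0 H3 and 1 to 2 H4 genes for RPE1 day 3 NPAT against CASP8AP2, 1 to 3 H3 genes for U2OS day 3 HINFP against CASP8AP2, 2 to 3 H3 and 1 to 3 H4 genes for U2OS day 3 HINFP against NPAT, 0 to 1 H3 and 1 to 4 H4 genes for U2OS day 3 NPAT against CASP8AP2 and 0 to 1 H4 genes for RPE1 day 2 against day 1 CASP8AP2. The score then ranged from 0.058 to 0.16 for RPE1 day 1 CASP8AP2, -0.020 to 0.26 for RPE1 day 3 CASP8AP2, -0.13 to 0.15 for RPE1 day 3 NPAT, -0.65 to -0.37 for RPE1 day 3 HINFP, 0.18 to 0.25 for U2OS day 3 CASP8AP2 and -0.17 to -0.090 for U2OS day 3 NPAT. The cause of these changes was not tested, except that a fit of fewer groups has fewer residual degrees of freedom and a filter removes dim genes. Day 3 had 2 arrays per group from duplicates transfected together. Of the 23 members, 10 lay below the median level, where a change is hard to see.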
